A study of Rattus norvegicus with 8 samples.

Results

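The genes described here encode the proteasome and the proteins that assemble, activate or inhibit it, measured in whole blood of rats on a normal or a high-fat diet. They were chosen by name, as every probe set whose platform annotation gives a single gene symbol starting with Psma, Psmb, Psmc, Psmd, Psme, Psmf or Psmg and a digit. The rule found 60 probe sets for 46 of the 14217 genes named on the arrays. Psmc3ip, a protein of meiotic recombination, and Psme3ip1, a nuclear protein that binds an activator, share the name pattern without being part of the particle and were kept apart, which left 44 genes with 58 probe sets. Where a gene had several probe sets, the brightest one on average stands for it. Psmb6 and Psme3 were not counted, because their probe sets list several symbols.

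The proteasome is the large protease that degrades proteins marked with ubiquitin in the cytosol and nucleus. Its barrel-shaped core has outer rings of alpha subunits, which gate the entrance, and inner rings of beta subunits, which hold the cutting sites. A cap of ATPases, which unfold the substrate, and of non-ATPase subunits, which bind ubiquitin chains and remove them, sits on the core. In white blood cells, and in other cells after interferon, the catalytic subunits Psmb8, Psmb9 and Psmb10 take the places of Psmb5, Psmb6 and Psmb7. With the activator subunits Psme1 and Psme2 they make up the immunoproteasome, which yields peptides for presentation on class I molecules. Proteasome genes are also known to be active in red cell precursors, which clear most of their proteins.

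All animals were male Wistar rats, bought at 7 weeks of age and kept for 1 week on a normal diet (CE-2). They then ate either that normal diet or a high-fat diet (Quick fat) over 8 weeks, and blood was taken on day 56 following an overnight fast. Blood was lysed in a phenol reagent, and 200 ng of total RNA went through linear amplification onto 3' expression arrays from Affymetrix. The labels name 10 rats per diet group and 4 arrays per group as biological replicates, with no statement on pooling, and an animal below means the sample on 1 array. A mulberry leaf group is not analysed here.

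The deposited levels read as log2 intensities, but levels of a probe set hardly differed between arrays. The median within-group SD of the 44 genes was 18.5 millionths of a log2 unit, against 7.00 millionths for all genes. Psmg2 had the smallest within-group SD, at 2.54 millionths, and Psmf1 the largest, at 478 millionths. The values are therefore not ratios of RNA amount, and no fold changes are given. The scaled level of a gene is its distance from its own mean over the 8 arrays, divided by its SD over them. Differences between the diets are given as high-fat minus normal in units of the SD that a gene had inside the diet groups, called within-group SDs. All 44 genes had a mean level above the median of the arrays, as did 65.3% of all genes. Markers of erythroid cells, neutrophils, monocytes, T, B and natural killer cells and platelets were each found above the 75th percentile of the arrays. This held for 8 of 9 erythroid, 4 of 10 neutrophil, 7 of 9 monocyte, 11 of 13 T cell, 6 of 6 B cell, 6 of 11 natural killer and 8 of 9 platelet genes, and the brightest were Hbb, S100a9, Lyz2, Cd3g, Ms4a1, Prf1 and Pf4. In bulk blood, fewer cells of a type and less RNA per cell cannot be told apart. One animal, normal replicate 3, stood apart on the whole array, with the lowest level of 24.6% and the highest level of 19.5% of all genes. Main values that rest on this animal or on high-fat replicate 3 are therefore also given without both.

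Short promoter stretches are shown first because proteasome genes are known to respond both to interferon, through one element, and to Nfe2l1, through another, and immune and constitutive genes had much the same pattern over the animals. Sequences were taken from RefSeq promoters of the GRCr8 assembly, which held 40 of the 44 genes, in the 250 bases before the annotated start. The interferon-stimulated response element, searched on both strands as GAAA, any 2 bases and GAAA again, was found in 5 of the 40 genes and in 3.41% of all 33469 promoters. It is shown in capitals for the catalytic subunit Psmb10 at chr19:50743293-50743405 on the minus strand and for the activator subunit Psme2 at chr15:33052755-33052844 on the minus strand, each written 5′ to 3′ in the direction of the gene.
Psmb10: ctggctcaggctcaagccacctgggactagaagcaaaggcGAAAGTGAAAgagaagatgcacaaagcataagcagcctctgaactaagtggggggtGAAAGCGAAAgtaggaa
Psme2: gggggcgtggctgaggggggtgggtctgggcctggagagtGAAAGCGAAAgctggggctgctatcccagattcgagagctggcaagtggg
The other 3 genes with this element were Psma4, Psmb3 and Psmd7, and 2 of the 5 immune genes held it in this window. The core of the antioxidant response element, which the proteasome regulator Nfe2l1 (Nrf1) can bind, was searched as TGACNNNGC on both strands and found in 6 of the 40 genes and 10.1% of all promoters. It is in capitals for 2 core subunits, Psmb5 at chr15:32047391-32047479 on the minus strand and Psmb2 at chr5:144254950-144255038 on the plus strand.
Psmb5: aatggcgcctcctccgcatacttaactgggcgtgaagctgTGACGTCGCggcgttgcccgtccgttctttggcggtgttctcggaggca
Psmb2: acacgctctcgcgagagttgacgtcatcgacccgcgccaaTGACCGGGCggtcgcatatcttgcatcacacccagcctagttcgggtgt
The CCAAT box, which the factor NF-Y can bind, was found in 19 of the 40 genes and 34.0% of all promoters. It lies directly before the capitals in Psmb2 and overlaps them by its last letter. These matches describe letters only, and no binding was measured.

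Most proteasome genes went up and down together from animal to animal, in both diet groups. The mean scaled level of the 44 genes was -0.037, 0.775, -1.21 and 0.523 in normal replicates 1 to 4, and -0.392, 0.408, -0.605 and 0.534 in high-fat replicates 1 to 4. Each group thus held animals with high and animals with low levels, and the groups overlapped. Normal replicate 3 had the lowest level of 26 of the 44 genes and stood below the mean in 41 of them. High-fat replicate 3 stood below the mean in 36 genes. These 2 animals were the 2 lowest of the 8 in 26 genes (59.1%), against 16.6% of all genes. Normal replicates 2 and 4 stood above the mean in 38 and 37 genes, and high-fat replicates 2 and 4 in 35 and 34.

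**Figure D1:**
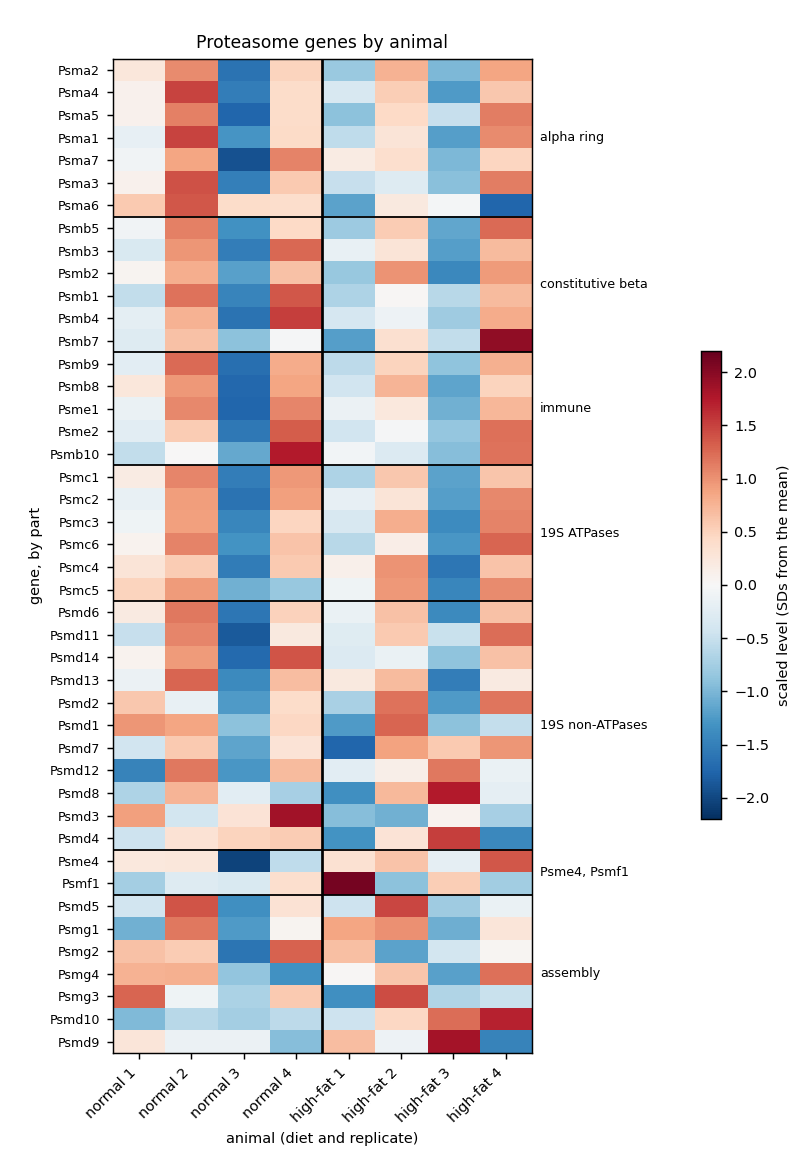
Scaled level of each of the 44 proteasome genes (rows, grouped by part) in each of the 8 animals (columns, diet and replicate), in SDs from the mean of that gene over the 8 arrays. Normal replicate 3 is low in 41 genes and high-fat replicate 3 in 36, while Psma6, Psmd3, Psmd4, Psmd8, Psmf1, Psmd9 and Psmd10 follow other patterns.

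Over the 946 pairs of the 44 genes, the median Pearson correlation across the 8 animals was 0.611 (Spearman 0.571), with 58.7% of pairs above 0.5. Over all pairs of the 14217 genes on the same arrays the median was near 0 and 15.9% of pairs lay above 0.5. Correlations here are descriptions without a test, since all pairs share the same 8 arrays. After the mean of each diet group was taken off, the median was 0.649. Without normal replicate 3 and high-fat replicate 3 it was 0.463 over 6 animals, with 45.8% of pairs above 0.5, against 17.0% for all genes.

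The likeness ran through the core, the immune genes and the ATPases of the cap. Within the alpha ring the median correlation of pairs was 0.896, within the constitutive beta ring 0.858, within the immune genes 0.920 and within the ATPases 0.905. Between any 2 of these parts it lay from 0.849 to 0.904, the highest between constitutive beta and immune genes. Among the non-ATPase subunits the median was 0.388, and among the assembly factors 0.0418. Without both replicates 3 the medians were 0.645 within the alpha ring, 0.703 within the constitutive beta ring, 0.778 within the immune genes and 0.690 within the ATPases. Those of the non-ATPases and the assembly factors were then 0.467 and -0.0193. Between the alpha ring, the constitutive beta ring, the immune genes and the ATPases, the medians then lay from 0.717 to 0.779. Set against the mean of the other 43 genes, 25 genes (56.8%) had a correlation above 0.8, against 13.3% of the other 14173 genes on the arrays set against the mean of all 44. Without both replicates 3, 18 of the 44 were above 0.8, against 6.75% of the genes outside the 44. Psmb9 was the most alike, at 0.995, and Psmd9 the least, at -0.573. The 25 genes above 0.8 had a median within-group SD of 42.8 millionths of a log2 unit and the 19 others 9.64 millionths. The part of this difference in spread in the likeness was not tested.

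**Figure D2:**
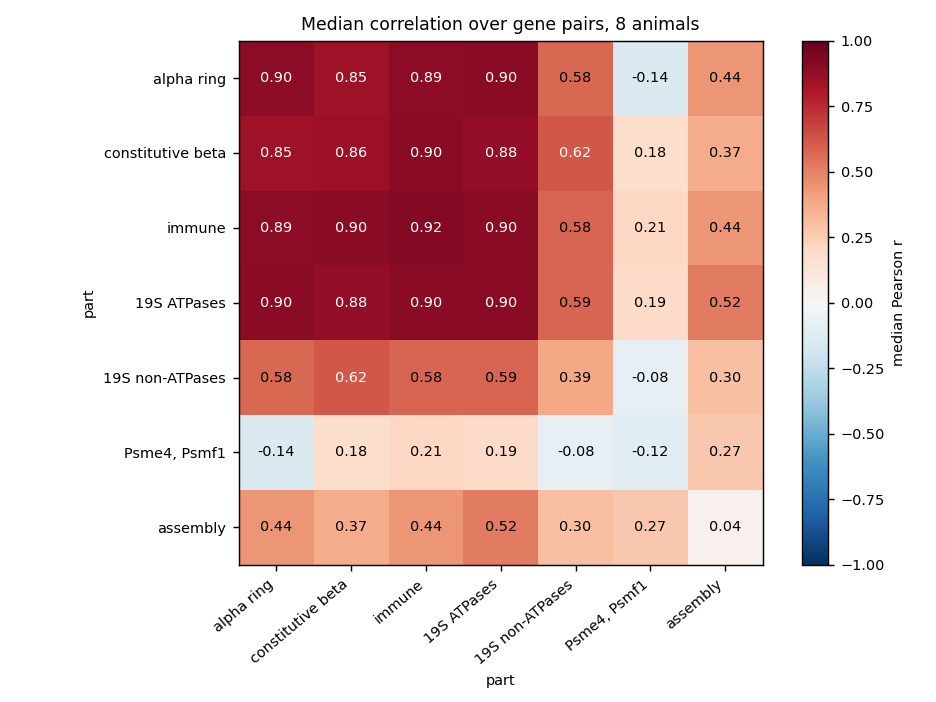
Median Pearson correlation across the 8 animals over all pairs of genes within a part (diagonal) and between parts (off the diagonal), with values printed in the cells. Alpha ring, constitutive beta ring, immune genes and ATPases form a block from 0.85 to 0.92, and assembly factors reach 0.04 among themselves.

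Alpha ring genes, 7 in number, were low together in normal replicate 3 with the exception of Psma6. Their mean scaled level was 0.120, 1.25, -1.31 and 0.538 in normal replicates 1 to 4 and -0.588, 0.333, -0.844 and 0.501 in high-fat replicates 1 to 4. Normal replicate 2 had the highest level of 5 of the 7 genes. Psma2, an alpha subunit of the gate, was the most alike to all other proteasome genes in this ring (0.978). Psma6, also an alpha subunit, had scaled levels of 0.575, 1.37, 0.409 and 0.384 in the normal animals and -1.18, 0.217, -0.0397 and -1.74 in the high-fat animals. Its 4 high-fat values all lay below its 4 normal values. In deposited units they ranged from 10.636485 to 10.636494, and the normal values from 10.636495 to 10.636500.

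In the constitutive beta ring, where Psmb5 and Psmb7 carry cutting sites and Psmb1, Psmb2, Psmb3 and Psmb4 build the ring, all 6 genes were below their mean in both normal replicate 3 and high-fat replicate 3. Psmb5, the chymotrypsin-like subunit, stood at -0.0766, 1.10, -1.33 and 0.438 in the normal and at -0.804, 0.563, -1.14 and 1.25 in the high-fat animals. Psmb7, the trypsin-like subunit, stood at -0.281, 0.638, -0.894 and -0.0182 in the normal and at -1.22, 0.353, -0.534 and 1.95 in the high-fat animals. Both were highest in high-fat replicate 4, and the diet groups overlapped in both. Psmb1 stood at -0.541, 1.19, -1.45 and 1.37 in the normal and at -0.686, 0.0273, -0.608 and 0.695 in the high-fat animals. The normal animals thus spanned the whole range of this gene.

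The 5 immune genes had both their lowest values in the same animals, normal replicate 3 and high-fat replicate 3. Psmb8, the inducible counterpart of Psmb5, stood at 0.248, 0.959, -1.72 and 0.863 in the normal and at -0.419, 0.747, -1.16 and 0.483 in the high-fat animals. Psmb9, the counterpart of Psmb6, stood at -0.232, 1.25, -1.66 and 0.817 in the normal and at -0.578, 0.495, -0.881 and 0.782 in the high-fat animals. In deposited units, Psmb9 was at 8.647787, 8.647877, 8.647700 and 8.647851 in the normal and at 8.647765, 8.647831, 8.647747 and 8.647848 in the high-fat animals. High and low animals were thus found on both diets at nearly the same levels. Psmb10, the counterpart of Psmb7 whose promoter holds 2 of the elements printed above, stood at -0.550, 0.0161, -1.12 and 1.75 in the normal and at -0.0550, -0.293, -0.934 and 1.19 in the high-fat animals. It was the immune gene least like the rest, with a correlation of 0.691 with the mean of the others.

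Psme1, a subunit of the activator ring, stood at -0.149, 1.05, -1.74 and 1.07 in the normal and at -0.136, 0.233, -1.05 and 0.725 in the high-fat animals. Psme2, its partner subunit, stood at -0.226, 0.552, -1.58 and 1.33 in the normal and at -0.424, -0.0234, -0.847 and 1.21 in the high-fat animals. Both were again lowest in the replicate 3 of either diet. In the GRCr8 gene order Psme1 and Psme2 are 1 gene apart, and Psmb8 and Psmb9 lie beside the peptide transporter genes Tap1 and Tap2. Across the 8 animals Psme1 and Psme2 correlated at 0.944 (Spearman 0.952), and at 0.879 in 6 animals without both replicates 3. Psmb8 and Psmb9 correlated at 0.959 (Spearman 0.976) and at 0.912 in 6 animals. Tap1, which lies between them, correlated with Psmb8 at 0.863 (Spearman 0.905), and at 0.557 in 6 animals. Tap2, on the other side of Psmb8, correlated with it at 0.538 (Spearman 0.595), and at 0.834 in 6 animals.

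Immune genes were also set against their constitutive counterparts in each animal. The scaled level of Psmb8 minus that of Psmb5 was 0.0548 ± 0.385 (SD, n = 4) in the normal and -0.0548 ± 0.503 in the high-fat group. Psmb10 minus Psmb7 was 0.161 ± 1.08 in the normal and -0.161 ± 0.896 in the high-fat group. Both differences were smaller than the spread within a group. Across the animals Psmb5 and Psmb8 correlated at 0.912 (Spearman 0.833), and at 0.813 without both replicates 3. Psmb7 and Psmb10 correlated at 0.561 (Spearman 0.595), and at 0.402 without both.

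Among the 19S ATPases, Psmc1 to Psmc6, which form the unfolding ring, normal replicate 3 and high-fat replicate 3 were the 2 lowest animals in all 6 genes. Their mean scaled level was -1.42 and -1.35 in these animals and between -0.302 and 0.951 in the other 6. Psmc1, the ATPase with the smallest p between the diets, stood at 0.174, 1.07, -1.53 and 0.947 in the normal and at -0.682, 0.594, -1.18 and 0.607 in the high-fat animals. The 2 diets covered much the same range.

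The 11 non-ATPase subunits of the cap were mixed. Psmd6, Psmd11, Psmd13 and Psmd14, of which Psmd14 is the enzyme that removes ubiquitin chains, were above 0.8 in correlation with the other proteasome genes. Psmd4, a receptor for ubiquitin chains, stood at -0.455, 0.317, 0.498 and 0.558 in the normal and at -1.32, 0.298, 1.52 and -1.41 in the high-fat animals. High-fat replicate 3, low in most proteasome genes, was thus the highest animal for Psmd4. Psmd3, a scaffold subunit, stood at 0.908, -0.399, 0.292 and 1.84 in the normal and at -0.938, -1.06, 0.0803 and -0.730 in the high-fat animals. High-fat replicate 3 was the highest of its diet and lay above normal replicate 2, so the groups overlapped.

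Psme4, the remaining activator, was partly like the shared pattern, and Psmf1, the inhibitor, was not, with correlations of 0.673 and -0.350 with the mean of the other members. Psme4, the activator PA200, stood at 0.230, 0.244, -2.04 and -0.559 in the normal and at 0.327, 0.620, -0.190 and 1.37 in the high-fat animals. Its difference between the diets was 1.20 within-group SDs (adjusted p = 1, limma), and its 2 further probe sets stood at 1.21 and 1.28. With each array centred on its median, which moved the median of all genes to -0.391, the difference was -0.0606. These 2 values are in within-group SDs of the centred levels, a unit unlike that of the deposited levels. Psmf1, the proteasome inhibitor PI31, stood at -0.739, -0.290, -0.328 and 0.373 in the normal and at 2.10, -0.898, 0.549 and -0.770 in the high-fat animals. Its highest level was in high-fat replicate 1, at 9.082963 in deposited units against 9.081586 to 9.082250 in the other 7. Fbxo7, which binds PI31, correlated with Psmf1 at 0.858 (Spearman 0.571), and at 0.905 in the 6 animals without both replicates 3. Fbxo7 was also far highest in high-fat replicate 1, at a scaled level of 2.15, and those 6 animals include it. Both Pearson values thus lean on that animal, and none was computed without it. The erythroid marker list was likewise highest in high-fat replicate 1, at a mean scaled level of 0.987, and its part in the level of Psmf1 was not tested.

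The 7 assembly factors, Psmg1 to Psmg4, which pair alpha subunits, and Psmd5, Psmd9 and Psmd10, which chaperone the ATPases, shared little beyond low values in normal replicate 3, where all 7 were below their mean. Psmd10 (gankyrin) stood at -0.976, -0.617, -0.753 and -0.576 in the normal and at -0.452, 0.458, 1.23 and 1.69 in the high-fat animals. All its high-fat values lay above all normal values. In deposited units Psmd10 was at 7.920773, 7.920776, 7.920775 and 7.920776 in the normal and at 7.920777, 7.920783, 7.920788 and 7.920791 in the high-fat animals. Psmd9 was highest in high-fat replicate 3 (1.83) and lowest in high-fat replicate 4 (-1.47), both within the same diet.

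**Figure D3:**
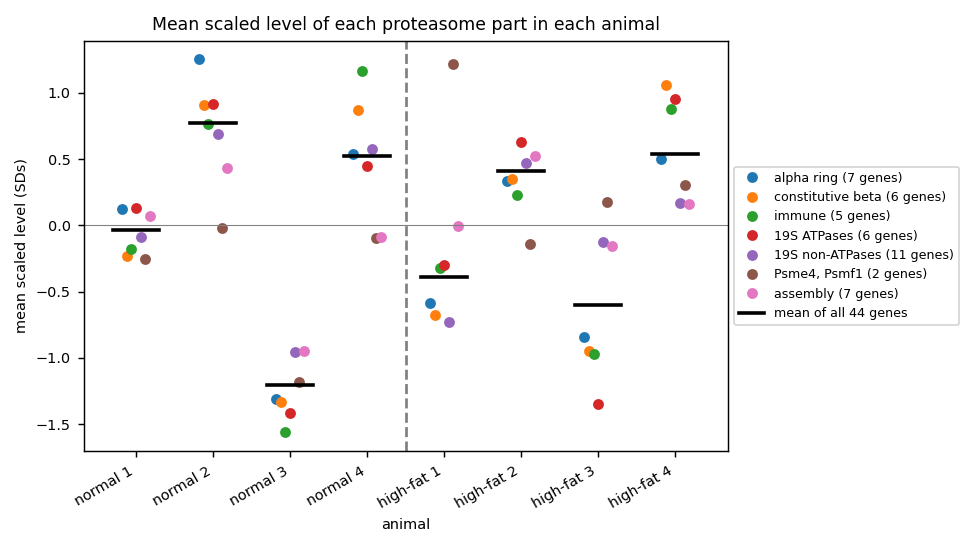
Mean scaled level (SDs) of each part of the proteasome (coloured points) and of all 44 genes (black bars) in each animal, normal diet on the left and high-fat diet on the right of the dashed line. The bars lie at -1.21 in normal replicate 3 and -0.605 in high-fat replicate 3, and from -0.392 to 0.775 in the other animals.

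No proteasome gene passed the adjusted test between the diets. With limma, adjusted over all 31042 probe sets, 0 of the 44 genes passed an adjusted p of 0.05, as did 0 of all 14217 genes (0% called), and each of the 44 had an adjusted p of 1. At an unadjusted p under 0.05, 1 of the 44 was higher and 2 were lower with the high-fat diet, against 0.928% and 1.07% of all genes. In sign alone, 18 of the 44 genes were higher and 26 lower with the high-fat diet. Their median stood at -0.0683 within-group SDs, against -0.0374 for all genes. In 36 of the 44 (81.8%) the difference was under 0.5 within-group SDs in size, as in 62.0% of all genes. The mean scaled level was 0.0136 ± 0.881 (SD, n = 4) in the normal and -0.0136 ± 0.569 in the high-fat group. Their distance of -0.0273 was far smaller than the spread between animals.

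The 3 genes with an unadjusted p under 0.05 were Psmd10, Psma6 and Psmd3. For Psmd10, limma gave a difference of 9.65e-06 ± 3.06e-06 in deposited units (SE, 4 arrays a group), which is 2.16 ± 1.63 within-group SDs (95% interval; unadjusted p = 0.0168, adjusted p = 1). Psma6 had a difference of -1.86 ± 1.67 within-group SDs (unadjusted p = 0.0334, adjusted p = 1, limma). Psmd3 had one of -1.73 ± 1.64 (unadjusted p = 0.0416, adjusted p = 1, limma). Groups did not overlap in 2 of the 44 genes, Psmd10 (higher; 0.591% of all genes) and Psma6 (lower; 0.724% of all genes). With each array centred on its median, Psmd10 stood at -0.172, Psma6 at -0.521 and Psmd3 at -0.570, against -0.391 for the median of all genes. In that setting 0 of the 44 genes had an unadjusted p under 0.05 by limma, against 0.394% of all genes. These differences are values of single genes and passed no threshold after adjustment.

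**Figure D4:**
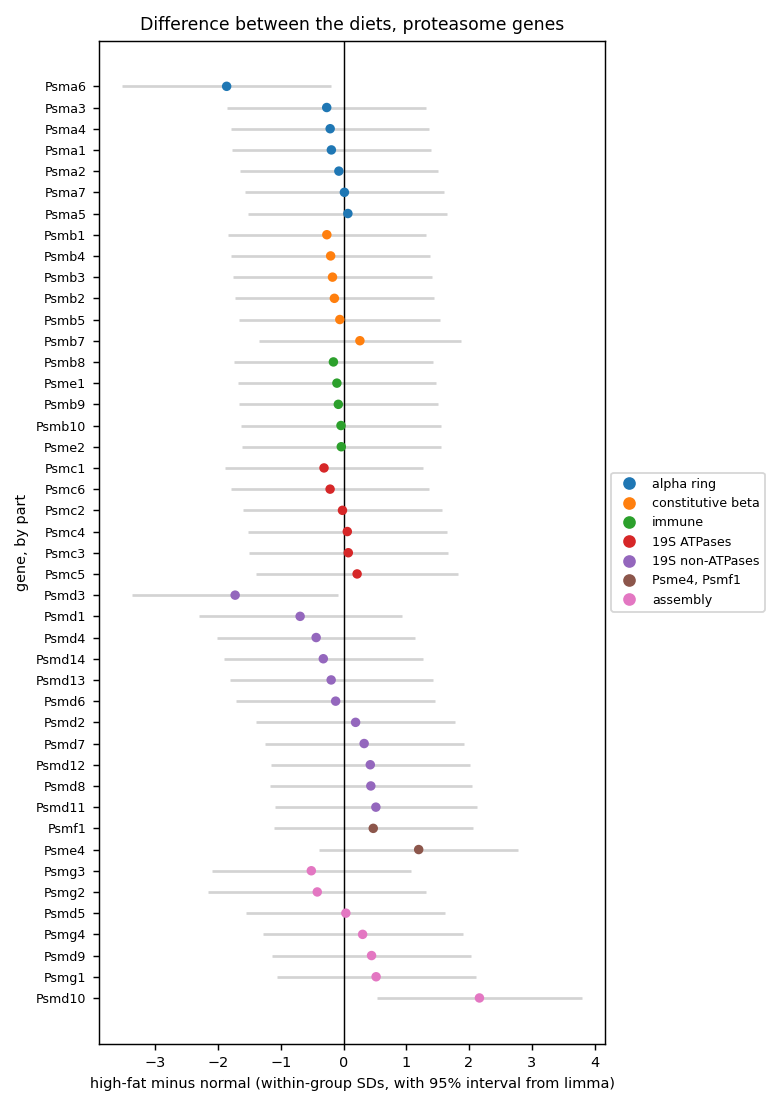
Difference between the diets for each of the 44 genes, as high-fat minus normal in within-group SDs (points, coloured by part), with the 95% interval from limma (grey bars). The intervals of Psmd10, Psma6 and Psmd3 leave out 0 before any adjustment, and all other intervals include it.

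By part, all 5 immune genes were slightly lower in sign in the high-fat group, with differences between -0.163 and -0.0375 within-group SDs and none past the test. Psmb8 stood at -0.163 ± 1.58 and Psmb9 at -0.0845 ± 1.58 within-group SDs (95% intervals). These intervals leave room for a difference of more than 1 within-group SD either way. The alpha ring had 5 of 7 genes lower (median -0.195), the constitutive beta ring 5 of 6 (-0.163), the ATPases 3 of 6 (0.0199), the non-ATPases 6 of 11 (-0.127) and the assembly factors 2 of 7 (0.303). With arrays centred on their medians, and in within-group SDs of the centred levels, all these medians were below 0. They were at -0.377 for the ATPases and -0.325 for the assembly factors, and the median of all genes moved to -0.391.

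These small medians depended on single animals. Without normal replicate 3 the median of the 44 genes was -0.678 within-group SDs, with 33 of them lower in the high-fat group, against a median of -0.0932 and 54.3% lower for all genes. The alpha ring then stood at -0.951, the immune genes at -0.833, the constitutive beta ring at -0.737, the ATPases at -0.588, the non-ATPases at -0.324 and the assembly factors at 0.0776. Without normal replicate 2 the median turned to 0.232, without high-fat replicate 3 to 0.208, without normal replicate 4 to 0.138, and without high-fat replicate 1 it was near 0. Without high-fat replicate 4 it was -0.336 and without high-fat replicate 2 -0.198. With both replicates 3 left out it was -0.378, with 33 of the 44 genes lower, against -0.0761 for all genes. In none of these fits did a proteasome gene pass an adjusted p of 0.05 by limma.

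Several probe sets of a gene did not always repeat its pattern. There were 9 of the 44 genes with more than 1 probe set, and of their 14 further probe sets 6 correlated above 0.5 with the brightest one and 6 below 0. Psmc6 and Psme4 had all their probe sets above 0.5. The second probe set of Psme1 correlated at -0.854 with the brightest and that of Psmd9 at -0.659. For Psmd7 the brightest probe set stood at 0.327 and the other at -1.75 within-group SDs between the diets. Psmd10, Psma6 and Psmd3 had 1 probe set each, so their differences have no second measurement.

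Some genes that work with the proteasome were high and low in the same animals. Of 23 measured partners and regulators from a list written for this work, 17 were higher and 6 lower under the high-fat diet, with 0 past an adjusted p of 0.05 by limma and 0 at an unadjusted p under 0.05. With arrays centred on their medians the split was 6 higher and 17 lower, where 93.5% of all genes were lower, against 52.5% as deposited. The 3 with the smallest p were Ubqln1, a shuttle for ubiquitinated proteins, at 1.35 within-group SDs, Nploc4, a cofactor of the segregase Vcp, at 1.12, and Ubqln4 at 0.898. Against the mean scaled level of the 44 proteasome genes, 9 of the 23 correlated above 0.8 and 5 below 0 over 8 animals, where 13.3% of the genes outside the 44 were above 0.8 and 49.6% below 0. Without both replicates 3, only Rad23b, Sem1 and Txnl1 were above 0.8 and 5 genes were below 0, against 6.75% and 44.7% of the genes outside the 44. Rad23b, a shuttle factor, was at 0.990 (0.987 without both replicates 3), and its second, dimmer probe set at -0.334. Sem1, a small subunit of the cap that the naming rule does not reach, was at 0.963 (0.941). Pomp, the maturation factor of the core, was at 0.812, and at 0.355 without both replicates 3.

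Nfe2l1, the factor that can induce proteasome genes, correlated at -0.764, the lowest of the 23 over 8 animals. Without both replicates 3 it was at -0.423, and Fbxo7 (-0.711), Ubqln4 (-0.504) and Ubqln1 (-0.477) were lower. It was high in normal replicate 3 (1.44) and high-fat replicate 3 (0.834), where the proteasome genes were low. Its 2 dimmer probe sets correlated at 0.361 and 0.0504, and without both replicates 3 at -0.406 and -0.0869. Of 15 measured genes of class I antigen processing and its regulators, 8 were higher and 7 lower under the high-fat diet, with 0 past an adjusted and 0 past an unadjusted p of 0.05 by limma. Centred on the array medians, 3 were higher and 12 lower, where 93.5% of all genes were lower. The 3 with the smallest p were the chaperones Calr, at 1.05 within-group SDs, and Tapbp, at 0.719, and the transporter subunit Tap2, at -0.698. Against the proteasome genes, 6 of the 15 correlated above 0.8 and none below 0 over 8 animals. Of the genes outside the 44, 13.3% were above 0.8 and 49.6% below 0. Without both replicates 3, 3 were above 0.8 (Irf1, Irf2 and Pdia3) and 3 below 0 (B2m, Jak1 and Calr). The shares of the genes outside the 44 were then 6.75% and 44.7%. B2m had tied values and a within-group SD of 0.168 millionths of a log2 unit. Irf1, a transcription factor of the interferon response, was at 0.937 (0.816 without both replicates 3).

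Marker levels of blood cells varied among the animals, and no marker passed an adjusted p of 0.05 between the diets by limma. In sign, 11 of 11 natural killer and 8 of 9 monocyte genes were higher under the high-fat diet, and 11 of 13 T cell and 5 of 6 B cell genes lower, against 52.5% of all genes lower. With arrays centred on their medians these counts were 11, 7, 13 and 5, and 93.5% of all genes were lower. Of the 9 erythroid genes, 7 were higher and 1 lower as deposited, and the remaining gene had equal group means to within rounding. When centred, 5 were higher and 4 lower. Only the erythroid list had genes at an unadjusted p under 0.05 by limma, 3 of 9, all higher, against 0.928% of all genes. In 1 of its 9 genes the groups did not overlap (higher, 0.591% of all genes). On both the monocyte and the natural killer list, high-fat replicate 4 alone was above the normal animals. The natural killer list was at -0.0897, -0.189 and -0.390 in high-fat replicates 1 to 3, with a highest normal value of 0.102. The mean scaled level of the erythroid list lay between -0.473 and -0.142 in the normal and between -0.444 and 0.987 in the high-fat animals. In normal replicate 3 the T cell list (13 genes measured) was at its lowest of the 8 animals, at a mean scaled level of -1.23, and the natural killer list (11 genes) at -0.691. The B cell list (6 genes) was lowest in high-fat replicate 3, at -1.10, where the erythroid list (9 genes) was at 0.831. In normal replicates 2 and 4, where proteasome genes were high, the B cell list was at 0.934 and 1.09 and the T cell list at 0.528 and 1.06. High-fat replicate 4 was at 2.12 on the natural killer list, 2.003 on the monocyte list (9 genes), 0.690 on the neutrophil list (10 genes) and -1.57 on the platelet list (9 genes). Proteasome genes were high in that animal too, while its T cell list was at -0.454 and its B cell list at -0.339. High-fat replicate 4 also had the highest median of all probe sets, 93.8 millionths of a log2 unit above the mean of the 8 arrays. The 3' minus 5' level of the Gapdh control was lowest in normal replicate 3 (-1.53 SDs from its mean) and at 0.312 in high-fat replicate 3. That of beta-actin was lowest in normal replicate 1 (-1.45) and high-fat replicate 2 (-1.16), and was at -0.961 in normal replicate 3 and 0.877 in high-fat replicate 3. The part of cell makeup, array level or RNA quality in the proteasome pattern was not tested.

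**Figure D5:**
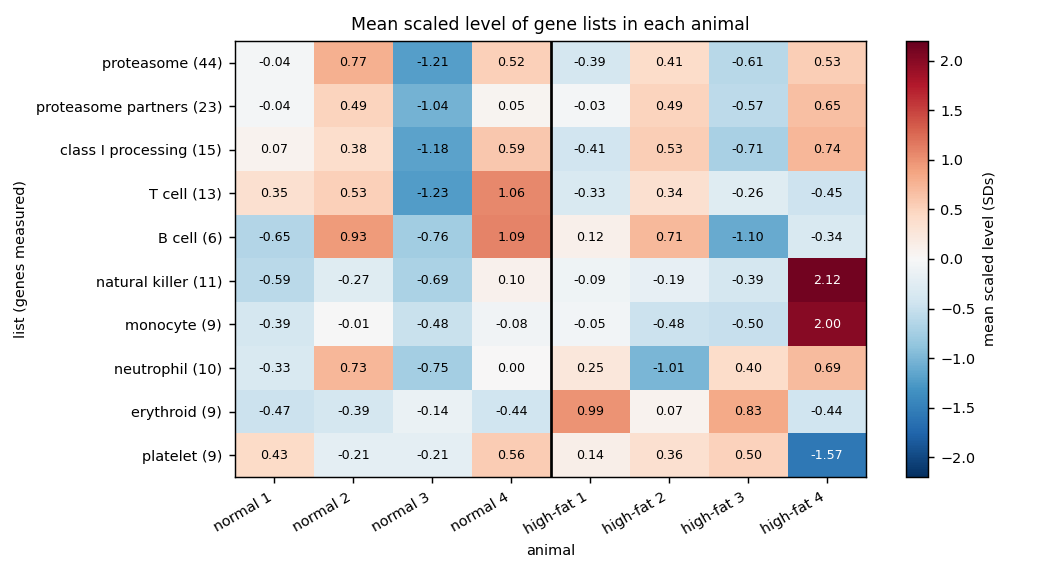
Mean scaled level (SDs) of the 44 proteasome genes, their partners, class I processing genes and 7 blood cell marker lists in each animal, with the value in each cell and the number of genes measured beside each list. The proteasome, partner and class I rows are lowest in normal replicate 3, at -1.21, -1.04 and -1.18, while high-fat replicate 4 stands out at 2.12 and 2.003 on the natural killer and monocyte rows.

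Of the 2 genes that share only the name pattern, Psmc3ip stood at -0.623 and Psme3ip1 at 0.349 within-group SDs, both with an adjusted p of 1 by limma.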

How the data were processed

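Whole blood RNA was measured on 8 arrays, 4 per diet, of the kind Affymetrix 3' expression, per the labels' protocols. The table the authors deposited holds 1 value per probe set and array, and its levels read as log2 intensities from 5.19 to 15.25. Background correction, normalization and combination of probes are not given in the sources used here, and compression of the differences may vary between probe sets. The number of arrays limits the precision. The limma p-values weigh a difference of group means against the spread between these samples, moderated over all probe sets. Names came from the platform annotation: 20826 probe sets had 1 symbol, 436 several and 9780 none.

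All 31042 probe sets other than the 57 controls were fitted with limma 3.58.1 in R 4.3.3 (lmFit, eBayes, two-sided, no covariates), with Benjamini-Hochberg adjustment over all of them. In simulated data with independent noise, the largest known shifts came out in the right direction. All simulated shifts were larger than any difference of a proteasome gene in the main fit, so recovery of smaller differences was not tested. Scaled levels and correlations were computed in Python 3.11.15. Values per animal are given for the immune genes, Psmb5 and Psmb7, for the member with the smallest p in each other part and for members with an unadjusted p under 0.05. Psmd4, Psmd9 and Psmf1 were added after their values were seen, as were the pairs of genes and the probe sets of partners. For the partner and class I lists, the 3 members with the smallest p are named, and others were named for their correlation once it was known. The members, lists, motifs and tests were chosen with earlier results of these data known. Same-numbered animals were not treated as pairs. Alternatives tried were quantile normalization on top, centring each array on its median, the brighter 50% of probe sets, eBayes with trend and robust, an unmoderated test of unequal variances, a replicate block, leaving out each animal, and averaging the probe sets of a gene. Leaving out both replicates 3 was added after seeing the data, as were the quantile and averaged values of the correlation.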

Additional observations from a re-analysis of the deposited data

How the results depend on the processing

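No proteasome gene passed an adjusted p of 0.05 in the limma fit as reported or in any of the alternatives that were tested. Averaging the probe sets of a gene was used for medians, scaled levels and correlations only and was not tested. For all probe sets the count in these tests was 0 except with quantile normalization on top, which gave 32. That normalization left 12 of the 44 genes with the same value in all arrays. That setting also put the median correlation over pairs of proteasome genes at 0.143, against 0.611. It turned the difference of Psmc1 to 0.707 within-group SDs of the quantile-normalized levels. The cause was not tested. With arrays centred on their medians the median correlation was 0.776. Centring took the same value off every gene of an array. The array medians lay from -27.8 to 93.8 millionths of a log2 unit around their mean. The median within-group SD of the 44 genes was 18.5 millionths. No median correlation over all genes was computed with centring, so 0.776 has no background beside it. Within-group SDs were then taken anew from the centred levels, so the unit changed as well. In that unit the median difference was -0.391 for all genes, against -0.0374 as deposited, and -0.412 for the proteasome genes. Of these, 43 of the 44 were lower, as were 93.5% of all genes. The differences of Psmb7, Psmd10 and Psme4 were then -0.401, -0.172 and -0.0606, the last 2 still above the median of all genes. Those of Psma6 and Psmd3 were -0.521 and -0.570, below that median. Leaving out both replicates 3 gave a median correlation of 0.463, and leaving out single animals gave 0.473 to 0.683, the lowest without normal replicate 3.

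Leaving out single animals moved the differences of Psmb1 from -0.979 to 0.125, Psmb10 from -0.449 to 0.681, Psmb5 from -0.548 to 0.292, Psmb7 from -0.468 to 0.779, Psmb8 from -1.08 to 0.176, Psmb9 from -0.833 to 0.310, Psmc1 from -1.17 to 0.00654, Psme1 from -0.979 to 0.209 and Psme2 from -0.677 to 0.410 within-group SDs. Psmd10 stayed between 1.87 and 4.45, Psma6 between -2.54 and -1.58, Psmd3 between -2.64 and -1.47 and Psme4 between 0.899 and 1.49. With the replicate number as a block, 0 genes passed and the median difference was -0.144 in units of the residual SD of that fit. Over all genes, deviations from the group means of same-numbered animals correlated at -0.122, 0.242, 0.431 and 0.166 for numbers 1 to 4. The highest correlation of each normal animal with a high-fat animal of another number was 0.178, 0.212, 0.197 and 0.00966 for numbers 1 to 4. The labels do not tie a number to a litter or batch. The mean scaled level of the proteasome genes was above 0 in both diets for numbers 2 and 4. It was below 0 in both for numbers 1 and 3, with normal replicate 1 near 0 at -0.037. Whether same-numbered animals form pairs was not tested.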
